A study of Mus musculus with 24 samples.

Results

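Gene expression in the mouse retinal pigment epithelium (RPE) in early night was compared with that at midday, about 10 h apart. The RPE is the pigmented sheet that lies against the photoreceptors, recycles their retinoids and digests the outer segment tips that they shed. The early night group held 5 libraries, replicates 1 and 2 of 15 h and replicates 1 to 3 of 16 h after light onset, taken in the dark. The midday group held 5 libraries, replicates 1 to 3 of 5 h and replicates 1 and 2 of 6 h after light onset, taken in the light. These are 10 of the 24 libraries of the series, which follows wild-type RPE through a day with circadian control of autophagy and lysosomes as its question.

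All 10 mice were of the 129S1/SvlmJ strain, wild type, with the Leu450 form of Rpe65, and were kept on a standard diet in cycles of 12 h of light that began at 7 am. Each library came from 1 mouse, and the ages of the mice are not given in the labels. The groups differ in the hour of the day and in whether the light was on, so a change that follows the clock and a change that follows light or dark cannot be told apart. Nothing in the labels says whether animals were sampled in parallel at the different hours, so a handling batch and the hour cannot be told apart either.

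Replicate 3 of 15 h and replicate 3 of 6 h were left out because the deviation of their genes fell with gene length (Spearman rho across genes -0.32 and -0.41). The same value was -0.10 to 0.12 in the 10 libraries used. Cytosolic ribosomal protein genes took 4.13% and 1.86% of counts in the libraries left out, against 0.911% to 1.20% in the 10. The 10 libraries held 14073440 to 17121986 counts, and 16358 of 54532 genes were tested. Early night libraries lay at 6.5 to 37.2 and midday libraries at -31.6 to -1.8 along the leading principal component (23.3% of variance). The RPE genes Rpe65, which makes 11-cis retinol, and Ttr, the retinol carrier transthyretin, stood at 4600 to 6260 and 15000 to 19100 CPM in early night and at 4570 to 5450 and 16200 to 18900 CPM at midday. CPM are the counts of a gene per mega-count of its library, with library sizes corrected by TMM, a trimmed mean. Best1, the RPE chloride channel bestrophin, was low throughout, at 2.62 to 3.91 CPM in early night and 2.75 to 4.77 CPM at midday.

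The daily clock of mammalian cells is a loop. Bmal1 (gene Arntl) and Clock switch on Per, Cry, Nr1d, Ciart and Dbp genes, PER and CRY proteins then block Bmal1 and Clock, and NR1D1 and NR1D2 (REV-ERB) compete with ROR receptors for control of Arntl. In the RPE the clock is known for its link to the daily burst of outer segment uptake that follows light onset.

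Early night and midday differed in 725 genes, 4.43% of those tested (edgeR quasi-likelihood test, Benjamini-Hochberg adjusted p under 0.05). Of these, 400 genes (2.45%) were higher and 325 (1.99%) were lower in early night. Most changes were small. The median absolute log2 fold change of the called genes was 0.38, and 29 higher and 30 lower genes changed by 1 or more on the log2 scale. In 577 of the 725 genes the ranges of the 5 early night and 5 midday libraries did not overlap, and over all genes tested this held for 6.13% (3.23% higher and 2.9% lower). With upper quartile scaling in place of TMM, which shifted the median of all genes by -0.03, the split was 325 higher and 434 lower. With both left-out libraries kept, 18 genes were called, 12 higher and 6 lower, and all 18 were among the 725. Without the 3 libraries of 5 h, 65 genes were called, 61 of them shared. Leaving out 1 library gave 422 genes without replicate 2 of 5 h, 456 without replicate 2 of 15 h, 478 without replicate 1 of 6 h and 1216 without replicate 3 of 16 h. Of the 83 called genes named by rule below, 50 kept their call in all 10 such fits, 21 were called without the libraries of 5 h and 11 with both left-out libraries kept. Genes that lost their call without the libraries of 5 h included Mertk, Mtor, Bmp4, Rspo2, Kcnj13 and Nfil3. The RNA is from a tissue and not from sorted cells, so fewer cells of a type and less RNA per cell cannot be told apart in any value below.

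The lowest adjusted p of all genes and the deepest fall belonged to a clock gene. Ciart (ENSMUSG00000038550, GRCm38 chromosome 3, 95878503 to 95882251), a repressor of Bmal1 and Clock, had 5.56, 4.63, 6.34, 5.01 and 5.94 CPM in early night, against 31.3, 32.8, 34.4, 38.9 and 36 CPM at midday. The groups lay far apart, with no library between them. Ciart averaged 5.49 ± 0.69 CPM in early night and 34.7 ± 2.95 CPM at midday (SD, n = 5 each), a log2 fold change of -2.66 ± 0.10 (SE, edgeR adjusted p = 2.28e-10) or 6.31-fold lower in early night.

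Nr1d1 (REV-ERB alpha; ENSMUSG00000020889, chromosome 11, 98767932 to 98775333), the nuclear receptor that represses Arntl, had 51.2, 54.1, 70.7, 55.1 and 56.5 CPM in early night. At midday it had 176, 183, 194, 215 and 166 CPM. Every early night library lay below every midday library, and replicate 1 of 16 h was the highest of the night. The log2 fold change was -1.70 ± 0.09 (edgeR adjusted p = 1.05e-07). Nr1d2, its close relative, changed far less: it averaged 143 ± 8.07 CPM in early night and 187 ± 12.2 CPM at midday (SD, n = 5 each; log2 fold change -0.38 ± 0.06, edgeR adjusted p = 0.00109). Nr1d1 shares 8.55% of its exonic bases with Thra on the other strand, and the reads carry no strand. Thra itself stood at 117 to 138 CPM in early night and 117 to 137 CPM at midday.

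In the activating limb, the gene of Bmal1 rose. Arntl (ENSMUSG00000055116, chromosome 7, 113207465 to 113314126) had 16, 15.8, 17.5, 20.2 and 20.9 CPM in early night, against 11.9, 12.3, 10.6, 10.9 and 8.71 CPM at midday. Its groups were clear of each other (log2 fold change 0.73 ± 0.12, edgeR adjusted p = 0.00158). The partners of Bmal1 did not pass the test: Clock averaged 83.2 ± 7.68 CPM in early night and 72.9 ± 4.23 CPM at midday (edgeR adjusted p = 0.12), and Npas2 4.96 ± 0.577 and 4.69 ± 1.17 CPM (edgeR adjusted p = 0.85; SD, n = 5 each). Rora and Rorb, ROR receptors, had log2 fold changes of 0.07 and 0.03. None of the 6 genes on the list of activators fell, and the list median was 0.14 against 0.00 over all genes tested.

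The cryptochromes moved in opposite directions. Cry1 (ENSMUSG00000020038, chromosome 10, 85131700 to 85185064) had 38, 40.5, 34.7, 35.7 and 33.6 CPM in early night, against 17.9, 20.4, 20.1, 19 and 22.3 CPM at midday. Cry2 (ENSMUSG00000068742, chromosome 2, 92403646 to 92434043) had 75.4, 80.5, 77.3, 81.1 and 74.9 CPM in early night, against 95.1, 101, 93.6, 98.3 and 99.4 CPM at midday. Neither gene's groups overlapped. Cry1 changed by 0.87 ± 0.08 on the log2 scale (edgeR adjusted p = 1.32e-05) and Cry2 by -0.32 ± 0.05 (edgeR adjusted p = 0.00106).

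The Period genes were lower by smaller amounts. Per2 averaged 68.9 ± 8.53 CPM in early night and 85.2 ± 4.92 CPM at midday (SD, n = 5 each; log2 fold change -0.31 ± 0.07, edgeR adjusted p = 0.0277), and its groups overlapped because replicate 1 of 16 h was at 83.8 CPM and replicate 1 of 5 h at 76.5 CPM. Per3 averaged 84.3 ± 7.13 CPM in early night and 100 ± 5.56 CPM at midday (SD, n = 5 each; log2 fold change -0.25 ± 0.06, edgeR adjusted p = 0.0309), and its groups overlapped by 1 library, replicate 1 of 15 h. Leaving out 1 library ended the call of Per2 in 7 of 10 fits and that of Per3 in 6 of 10 (highest edgeR adjusted p 0.0838 and 0.0983). Per1 averaged 83.8 ± 15.5 CPM in early night and 105 ± 15.1 CPM at midday and did not pass (SD, n = 5 each; log2 fold change -0.32 ± 0.14, edgeR adjusted p = 0.239). The helix-loop-helix repressors Bhlhe40 and Bhlhe41 had log2 fold changes of 0.11 and -0.01. Over the 10 repressing genes 1 rose and 6 fell, and the list median was -0.31.

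Among the output factors, which pass the rhythm on to other genes, Dbp and Nfil3 bind the same D-box element, Dbp as an activator and Nfil3 as a repressor. Dbp (ENSMUSG00000059824, chromosome 7, 45705088 to 45710203) had 165, 178, 189, 147 and 140 CPM in early night, against 371, 355, 311, 332 and 349 CPM at midday. Nfil3 (ENSMUSG00000056749, chromosome 13, 52967209 to 52981073) had 15.5, 16.1, 15.4, 13.8 and 13.8 CPM in early night, against 7.11, 6.42, 7.24, 5.55 and 10 CPM at midday. Neither gene's groups overlapped, and the changes ran in opposite directions. The log2 fold change was -1.07 ± 0.08 for Dbp (edgeR adjusted p = 2.12e-06) and 1.04 ± 0.14 for Nfil3 (edgeR adjusted p = 0.000452). Tef, another activator of this family, averaged 395 ± 20.9 CPM in early night and 453 ± 25.6 CPM at midday (SD, n = 5 each; edgeR adjusted p = 0.0534). Hlf, the last of the family, averaged 120 ± 8.73 and 121 ± 8.06 CPM. None of the 6 kinases and ubiquitin ligases that act on clock proteins passed the test, and their log2 fold changes lay between -0.37 and 0.07. Casein kinase 1 delta (Csnk1d) averaged 177 ± 8.22 CPM in early night and 171 ± 7.56 CPM at midday (SD, n = 5 each).

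**Figure D1:**
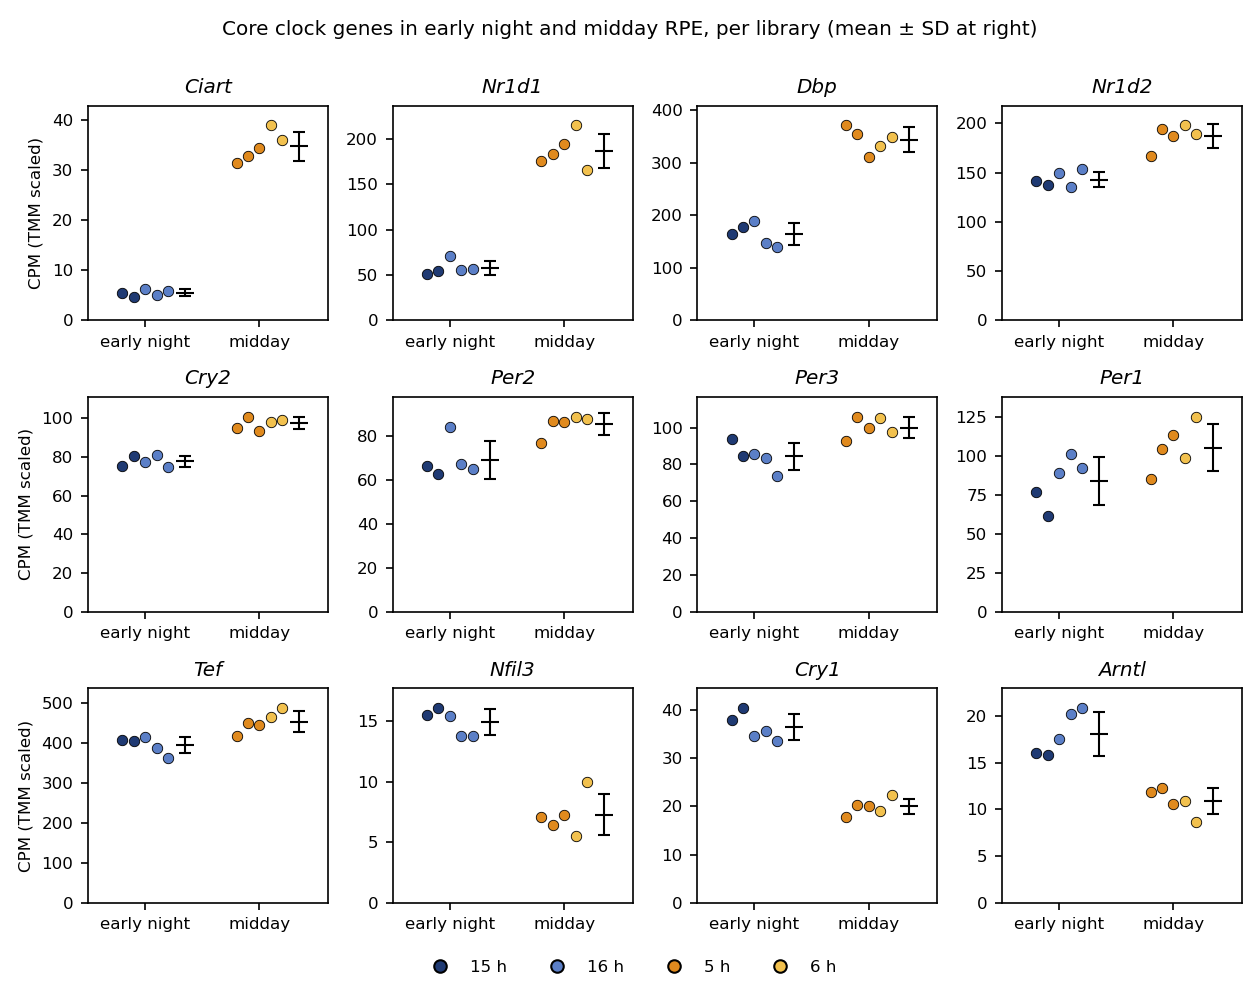
CPM of 12 clock genes in each early night library (left, 15 h dark blue, 16 h light blue) and each midday library (right, 5 h orange, 6 h yellow), with bars for mean ± SD (n = 5 each) and axes that start at 0. Ciart, Nr1d1, Dbp, Nr1d2, Cry2 and Tef lie lower and Nfil3, Cry1 and Arntl higher in every early night library, whereas Per1, Per2 and Per3 overlap. Tef did not pass the test (edgeR adjusted p = 0.0534).

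The promoters of the called clock genes are shown because the E-box CACGTG is the site that Bmal1 and Clock bind, and the D-box and the ROR element are the sites of the Dbp and Nfil3 family and of the ROR and REV-ERB receptors. Of the 11 called clock genes, 9 had an entry in RefSeq (GRCm38.p6), and the 250 bases before each start were searched on both strands for CACGTG, for TTATGTAA (TTACATAA on the other strand) and for the ROR element. The E-box was found for Ciart and Cry1, the D-box for Per3, and the ROR element for none. Matches are in capitals, and each sequence runs 5′ to 3′ towards the start of its gene on the minus strand. Positions are chr3:95882229-95882478 for Ciart, chr10:85185055-85185304 for Cry1 and chr4:151044666-151044915 for Per3.
Ciart: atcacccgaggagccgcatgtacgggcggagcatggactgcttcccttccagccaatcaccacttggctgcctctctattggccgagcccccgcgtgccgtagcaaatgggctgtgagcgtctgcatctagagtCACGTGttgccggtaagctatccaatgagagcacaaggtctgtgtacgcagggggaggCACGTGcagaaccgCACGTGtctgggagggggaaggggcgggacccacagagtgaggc
Cry1: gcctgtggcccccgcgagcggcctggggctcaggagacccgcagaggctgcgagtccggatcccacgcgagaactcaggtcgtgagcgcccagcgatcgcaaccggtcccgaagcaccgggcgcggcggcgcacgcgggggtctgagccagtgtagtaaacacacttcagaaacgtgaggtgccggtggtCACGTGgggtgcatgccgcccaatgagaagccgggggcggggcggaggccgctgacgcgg
Per3: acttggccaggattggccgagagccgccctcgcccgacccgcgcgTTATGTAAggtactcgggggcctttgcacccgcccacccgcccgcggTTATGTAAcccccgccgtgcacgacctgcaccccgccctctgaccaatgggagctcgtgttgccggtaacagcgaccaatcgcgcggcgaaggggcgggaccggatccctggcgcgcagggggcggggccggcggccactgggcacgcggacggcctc

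The Ciart promoter held 3 E-boxes, 116, 58 and 44 bases before the start, and the Cry1 promoter held 1, 60 bases before it. The Per3 promoter held 2 D-boxes, 205 and 158 bases before the start, and no motif overlapped another. Ciart was 6.31-fold lower and Cry1 1.83-fold higher in early night, so the genes with an E-box in this window ran in opposite directions. An E-box lay in 6.02% of all RefSeq promoters of this length. Counted by gene, with a match in any promoter of the gene, the share was 9.57% of tested genes with an entry. It was 11% of the genes called higher and 9.79% of those called lower. A D-box lay in 0.819% of all promoters and, counted by gene, in 0.605% of tested genes. The ROR element was rarer still, in 0.177% of all promoters and, counted by gene, in 0.136% of tested genes. Shares by promoter and by gene are not like measures. A match describes the letters in the window and does not show binding.

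The 12 largest rises with at least 5 CPM and no overlap between the groups included genes of aldehyde and alcohol metabolism. Aldh3a1 (ENSMUSG00000019102, chromosome 11, 61207537 to 61218421), an aldehyde dehydrogenase known as a corneal crystallin, had 89.3, 64.6, 55, 77.6 and 44.5 CPM in early night, against 16, 15.6, 22, 35.4 and 24.8 CPM at midday. Fmo2 (ENSMUSG00000040170, chromosome 1, 162874317 to 162898726), a flavin monooxygenase, had 36.7, 37.9, 30.2, 35 and 31.4 CPM in early night, against 8.90, 14.7, 12.8, 11 and 13.1 CPM at midday. Aldh3a1 varied widely within each group, whereas Fmo2 was tight. The log2 fold changes were 1.54 ± 0.28 for Aldh3a1 (edgeR adjusted p = 0.0185) and 1.5 ± 0.12 for Fmo2 (edgeR adjusted p = 2.22e-06). Adh1, an alcohol dehydrogenase that also acts on retinol, averaged 19 ± 5.28 CPM in early night and 8.93 ± 1.81 CPM at midday (SD, n = 5 each; log2 fold change 1.09 ± 0.19, edgeR adjusted p = 0.00481).

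A pair of related small GTPases rose together. Rasl11a (chromosome 5, 146845071 to 146847726) had 11.2, 11.4, 11.3, 12.4 and 14.2 CPM in early night, against 4.36, 3.49, 6.02, 4.84 and 4.89 CPM at midday. Rasl11b (chromosome 5, 74195286 to 74199481) had 42.3, 38.7, 33.3, 30.4 and 31.5 CPM in early night, against 14.7, 13.8, 17.4, 17.2 and 17.7 CPM at midday. Each gene's early night libraries all stood above its midday libraries, with log2 fold changes of 1.36 ± 0.14 for Rasl11a (edgeR adjusted p = 6.77e-05) and 1.12 ± 0.10 for Rasl11b (edgeR adjusted p = 1.41e-05).

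Signalling genes among the largest rises were Adra2a, Il34 and Angptl7. Il34, a ligand of the macrophage receptor Csf1r, had 11, 11.9, 12.4, 12.7 and 8.26 CPM in early night, against 5.91, 4.49, 6.20, 4.52 and 5.85 CPM at midday (log2 fold change 1.06 ± 0.15, edgeR adjusted p = 0.000656). Adra2a, an adrenergic receptor, had 15.8, 9.78, 7.86, 5.70 and 6.38 CPM in early night, against 1.79, 3.62, 3.53, 3.10 and 5.40 CPM at midday. The Adra2a groups nearly met, and its log2 fold change of 1.39 ± 0.32 lost its call in 6 of the 10 fits without 1 library (edgeR adjusted p = 0.0352 with all 10, highest 0.0866). Angptl7, a secreted protein related to angiopoietins, averaged 30.2 ± 5.10 CPM in early night and 12.4 ± 3.26 CPM at midday (SD, n = 5 each; edgeR adjusted p = 0.00131). The remaining rises were Zbtb16 (log2 fold change 1.19), Cys1 (1.13), a protein of the primary cilium, Chsy3 (1.05), an enzyme of chondroitin sulfate synthesis, and Nfil3 given above.

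Ion channels were among the largest falls. Cacna1h (ENSMUSG00000024112, chromosome 17, 25374285 to 25433783), a T-type calcium channel, had 21.6, 20.4, 21.8, 22.3 and 18.9 CPM in early night, against 50.2, 46.4, 35.1, 51.9 and 42.2 CPM at midday. Kcnj13 (ENSMUSG00000079436, chromosome 1, 87386363 to 87394729), the potassium channel Kir7.1 of the apical RPE membrane, had 138, 158, 176, 168 and 222 CPM in early night, against 378, 342, 323, 314 and 297 CPM at midday. The groups were clear of each other in both genes. Log2 fold changes were -1.10 ± 0.10 for Cacna1h (edgeR adjusted p = 9.61e-06) and -0.94 ± 0.11 for Kcnj13 (edgeR adjusted p = 0.000773). Kcnj13 lies within Gigyf2 on the other strand and shares 49.1% of its exonic bases with it. Gigyf2 averaged 76.5 ± 1.73 CPM in early night and 78.7 ± 4.29 CPM at midday (SD, n = 5 each; edgeR adjusted p = 0.704).

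Secreted proteins made up another part of the falls. Mmp3, a matrix metalloproteinase, had 10.1, 9.65, 9.81, 14.3 and 13.7 CPM in early night, against 16.5, 25.7, 23, 29.8 and 27.5 CPM at midday (log2 fold change -1.09 ± 0.16, edgeR adjusted p = 0.00182). Angptl4, an inhibitor of lipoprotein lipase, had 12.7, 15.3, 21.4, 22.6 and 19.5 CPM in early night, against 35.8, 43.0, 50.3, 28.8 and 34.3 CPM at midday (log2 fold change -1.07 ± 0.19, edgeR adjusted p = 0.00993). For each of them the lowest midday library was above the highest early night library. Gdf10, a ligand of the TGF-beta family, averaged 17.5 ± 4.72 CPM in early night and 37.0 ± 9.88 CPM at midday (SD, n = 5 each), and its call (edgeR adjusted p = 0.0366) was lost in 7 of the 10 fits without 1 library (highest 0.103). Ptprt, a receptor tyrosine phosphatase, averaged 17.8 ± 2.15 CPM in early night and 34.2 ± 4.36 CPM at midday (SD, n = 5 each; edgeR adjusted p = 7.07e-05). Atp6v1e2, a V-ATPase subunit known mainly from testis, averaged 11.2 ± 2.07 and 19.9 ± 1.09 CPM (edgeR adjusted p = 0.000699) and shares 29.4% of its exonic bases with another annotated gene. Itgal, an integrin of leukocytes, and Pde6c, the cone phosphodiesterase, had log2 fold changes of -0.88 and -0.79.

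**Figure D2:**
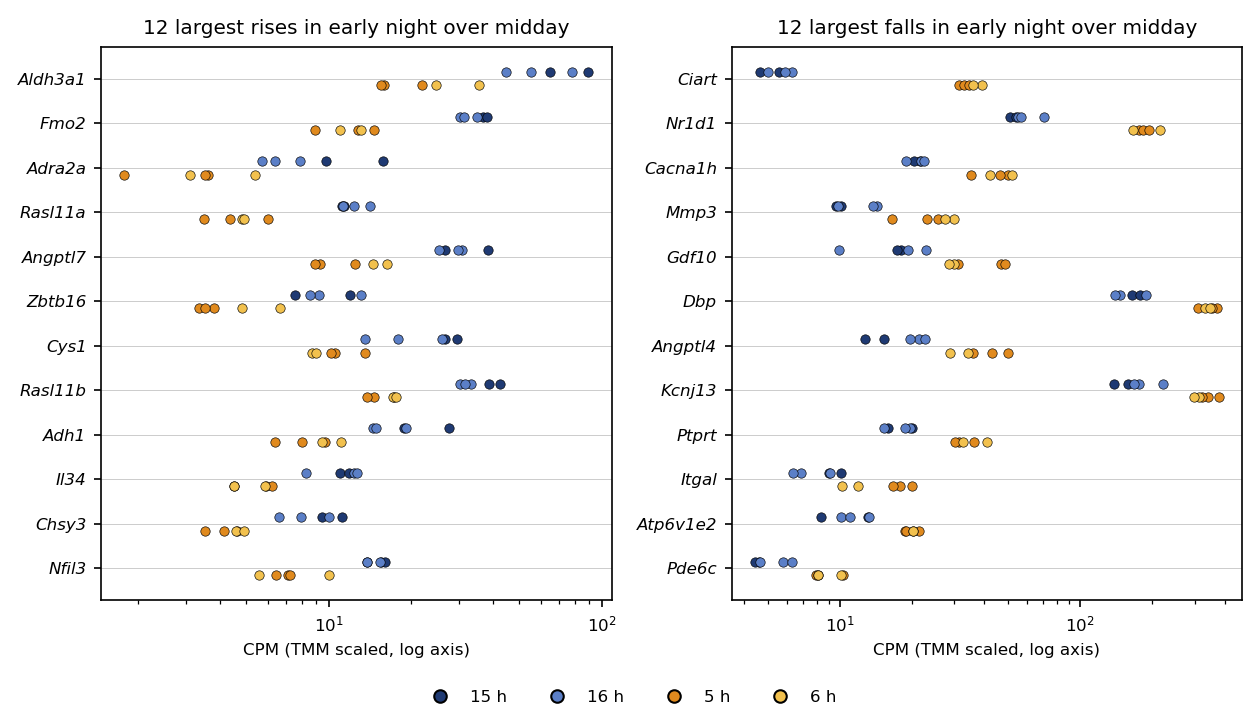
CPM on a log axis of the 12 genes with the largest rise (left) and the 12 with the largest fall (right), 1 point per library, early night above midday for each gene. The 5 early night and 5 midday points of every gene shown are apart, since the choice required it. Ciart, Nr1d1 and Fmo2 show wide gaps, and Adra2a and Itgal narrow ones.

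Of 28 retinoid and RPE identity genes tested, 1 rose and none fell (3.57%, against 4.43% of all genes), with a list median of -0.12. The same 4.43% is the share to set beside each list share of early night against midday below. The gene that rose, Cdh3 (P-cadherin, an adhesion protein of the RPE), had 317, 371, 367, 350 and 382 CPM in early night, against 291, 214, 216, 262 and 252 CPM at midday. Its groups did not overlap, and the log2 fold change was 0.53 ± 0.08 (edgeR adjusted p = 0.00155). Rpe65 averaged 5280 ± 707 CPM in early night and 4980 ± 399 CPM at midday (SD, n = 5 each; log2 fold change 0.08 ± 0.09, edgeR adjusted p = 0.635). Lrat, which makes the retinyl esters that Rpe65 uses, averaged 1850 ± 305 and 2120 ± 159 CPM (edgeR adjusted p = 0.277). Rlbp1, the carrier of 11-cis retinoids, averaged 3330 ± 249 and 3610 ± 229 CPM (edgeR adjusted p = 0.337).

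Genes of retinoic acid, the hormone made from retinal, changed at both ends of the pathway. Of 13 tested, 2 rose and 1 fell (23.1%), with a list median of 0.23. The synthetic enzyme Aldh1a1 (chromosome 19, 20492715 to 20643462) had 58.5, 41.3, 42.2, 35.6 and 50 CPM in early night, against 26.0, 25.4, 24.4, 22.3 and 27.5 CPM at midday. Cyp26a1 (chromosome 19, 37697808 to 37701528), an enzyme that breaks retinoic acid down, had 2.19, 2.51, 2.80, 1.5 and 1.01 CPM in early night, against 6.21, 12.3, 11.3, 5.61 and 4.07 CPM at midday. Neither pair of groups overlapped, and Cyp26a1 was near 1 CPM in its lowest library. The log2 fold change was 0.86 ± 0.11 for Aldh1a1 (edgeR adjusted p = 0.00069) and -1.97 ± 0.35 for Cyp26a1 (edgeR adjusted p = 0.00797). Aldh1a2, a second synthetic enzyme, had a log2 fold change of 0.38 ± 0.09 (edgeR adjusted p = 0.0186) and lost its call without replicate 2 of 5 h or replicate 2 of 15 h (highest edgeR adjusted p 0.0536). Cyp26b1, another enzyme of breakdown, averaged 11.3 CPM in early night and 9.25 CPM at midday. It did not pass (log2 fold change 0.28 ± 0.41, edgeR adjusted p = 0.756), nor did the synthetic enzyme Aldh1a3 (0.38 ± 0.22, edgeR adjusted p = 0.367). Without the libraries of 5 h none of the 13 genes was called.

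Of 20 genes for the uptake of outer segments, Mertk alone was called (5.00%, near the 4.43% of all genes, with a list median of 0.06). Mertk (ENSMUSG00000014361, chromosome 2, 128698956 to 128802894), the receptor tyrosine kinase that triggers engulfment, had 180, 191, 223, 202 and 207 CPM in early night, against 257, 255, 242, 271 and 251 CPM at midday. The groups did not overlap, and Mertk was 1.27-fold lower in early night (log2 fold change -0.35 ± 0.06, edgeR adjusted p = 0.00262). Its call was lost without the libraries of 5 h and with both left-out libraries kept. Tulp1 and Tub, ligands of this receptor that rods also express, had log2 fold changes of -0.69 and -0.47 and did not pass (edgeR adjusted p = 0.469 and 0.422).

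Of 24 genes of epithelial transport, 1 rose and 2 fell (12.5%; list median -0.10), and the falls were Kcnj13 and Slc2a1. Slc2a1, the glucose transporter that feeds the outer retina, averaged 1380 ± 79.8 CPM in early night and 1600 ± 82.4 CPM at midday (SD, n = 5 each; log2 fold change -0.21 ± 0.06, edgeR adjusted p = 0.0484), and its call was lost in 8 of the 10 fits without 1 library (highest 0.135). Of 21 melanin and melanosome genes, Mlph rose and Rab38 fell, both of which move or sort pigment granules (9.52%; list median 0.01). Mlph averaged 306 ± 33.3 CPM in early night and 245 ± 18.0 CPM at midday, and Rab38 30.7 ± 5.40 and 41.4 ± 3.86 CPM (SD, n = 5 each; edgeR adjusted p = 0.0194 and 0.0281). Both had overlapping groups. The call of Mlph was lost without replicate 2 of 15 h (edgeR adjusted p 0.05), and that of Rab38 in 8 of the 10 fits without 1 library (highest 0.0887).

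Few autophagy and lysosomal genes, the subject of the series, passed the test. Over the 5 lists together, 2 of 180 tested genes rose and 5 fell (3.89%, against 4.43% of all genes), with a median log2 fold change of -0.02. None of 39 genes of the autophagy machinery and none of 19 selective autophagy receptors passed the test. An unadjusted edgeR p under 0.05 was seen in 9 and 2 of them, and in 3224 of all 16358 genes tested. DESeq2 called 3 of the machinery genes and 1 of the receptors, and limma-voom called none of either. Without the libraries of 16 h, 5 of the receptors were called.

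Optn, the autophagy receptor named in the title of the series, had 109, 102, 111, 104 and 115 CPM in early night, against 106, 117, 108, 118 and 116 CPM at midday. The groups overlapped almost wholly (log2 fold change -0.06 ± 0.05, edgeR adjusted p = 0.538). Map1lc3b (LC3B, which coats autophagosomes) had 191, 188, 176, 184 and 189 CPM in early night, against 169, 168, 171, 160 and 173 CPM at midday. Sqstm1 (p62, a receptor that carries cargo to LC3) averaged 507 ± 31.5 CPM in early night and 454 ± 12.8 CPM at midday (SD, n = 5 each). Both genes were higher in all 5 early night libraries than in any midday library, by little: the log2 fold changes were 0.14 ± 0.05 and 0.16 ± 0.05, and neither passed (edgeR adjusted p = 0.0918 and 0.102). Of the 25 alternative fits, 1 called Map1lc3b and 5 called Sqstm1. Sqstm1 was also called at 15 h against 5 h (0.26, edgeR adjusted p = 0.0233) and not at 16 h against 6 h (0.09, edgeR adjusted p = 0.733). Sqstm1 shares 17.3% of its exonic bases with Mrnip, which was at 0.518 to 1.19 CPM in early night and 0.810 to 1.48 CPM at midday.

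Of 52 lysosomal hydrolases and cofactors, 1 fell and none rose (1.92%), and 43 had a negative log2 fold change, with a list median of -0.06. The gene that fell was Lipa, the lysosomal acid lipase, which averaged 136 ± 7.59 CPM in early night and 156 ± 8.91 CPM at midday (SD, n = 5 each; log2 fold change -0.20 ± 0.05, edgeR adjusted p = 0.0477). Ctsd, the protease that does much of the digestion of outer segment protein, averaged 3040 ± 102 and 3220 ± 177 CPM and did not pass (edgeR adjusted p = 0.43). It shares 34.4% of its exonic bases with Gm49369, a predicted gene of the same orientation. Of 37 lysosomal membrane and V-ATPase genes, 1 fell and none rose (2.70%; list median -0.05). That gene was Atp6v0a1, a proton pump subunit, with 471 ± 9.02 CPM in early night and 539 ± 31.7 CPM at midday (SD, n = 5 each; log2 fold change -0.19 ± 0.05, edgeR adjusted p = 0.0409). Lamp1, a main protein of the lysosomal membrane, averaged 410 ± 17.0 and 406 ± 18.1 CPM. The calls of Lipa and Atp6v0a1 were each lost in 8 of the 10 fits without 1 library (highest edgeR adjusted p 0.139 and 0.115).

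The regulators of the lysosome held most of the calls: of 33 genes for the MiT/TFE factors and mTORC1, the kinase complex that holds autophagy down, 2 rose and 3 fell (15.2%; list median 0.03). Ddit4 (REDD1, an inhibitor of mTORC1; ENSMUSG00000020108, chromosome 10, 59949669 to 59951834) had 86.7, 90.9, 92.9, 99.6 and 107 CPM in early night, against 66.3, 66.6, 57.7, 57.4 and 56.9 CPM at midday. Mtor (ENSMUSG00000028991, chromosome 4, 148448611 to 148557683), the kinase itself, had 133, 129, 144, 134 and 143 CPM in early night, against 176, 176, 171, 171 and 151 CPM at midday. Neither gene's groups overlapped (log2 fold change 0.65 ± 0.07 and -0.31 ± 0.05, edgeR adjusted p = 6.77e-05 and 0.00405). Sesn3 and Castor1, which also restrain mTORC1, fell: Sesn3 averaged 673 ± 41.8 CPM in early night and 833 ± 47.7 CPM at midday, and Castor1 15.2 ± 0.416 and 19.1 ± 0.794 CPM (SD, n = 5 each; edgeR adjusted p = 0.00642 and 0.0221). Deptor, another inhibitor, rose with overlapping groups (log2 fold change 0.42 ± 0.11, edgeR adjusted p = 0.0442). Inhibitors of mTORC1 were therefore called in both directions. Castor1 and Deptor lost their calls in 5 and 7 of the 10 fits without 1 library (highest edgeR adjusted p 0.0645 and 0.119).

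The transcription factors that switch on lysosomal genes did not pass in the comparison of the groups. Tfeb averaged 37.4 ± 4.8 CPM in early night and 30.8 ± 2.81 CPM at midday (SD, n = 5 each, log2 fold change 0.28 ± 0.09, edgeR adjusted p = 0.0933). It was called in 5 of the 25 alternative fits. Tfeb was also called at 15 h against 5 h (0.41, edgeR adjusted p = 0.0435) and not at 16 h against 6 h (0.20, edgeR adjusted p = 0.62). Tfe3 averaged 45.6 ± 4.22 and 44.1 ± 2.33 CPM, and Mitf 204 ± 25.2 and 194 ± 11.6 CPM (edgeR adjusted p = 0.744 and 0.628).

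Growth factor and hormone pathways held several changes of moderate size. Of 16 glucocorticoid receptor targets, 3 rose and none fell (18.8%; list median 0.19). Tsc22d3 (GILZ, which mediates part of the hormone's anti-inflammatory action) had 122, 100, 111, 112 and 97.3 CPM in early night, against 53.9, 58.2, 69.7, 58.9 and 85.7 CPM at midday. Zbtb16, a transcription factor, had 12.0, 7.54, 13.2, 9.21 and 8.55 CPM in early night, against 3.82, 3.37, 3.53, 4.84 and 6.67 CPM at midday. The highest midday value of each gene was in replicate 2 of 6 h, and the groups still did not overlap (log2 fold change 0.73 ± 0.12 and 1.19 ± 0.20, edgeR adjusted p = 0.00502 and 0.00356). The third was Ddit4. Fkbp5, a classical target, had 34.4 to 43.9 CPM in early night and 13.5 to 43.2 CPM at midday, where replicate 2 of 6 h again was highest, and did not pass (edgeR adjusted p = 0.206).

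In the BMP list 1 of 21 genes rose and 1 fell (9.52%; list median -0.03). Bmp4 (chromosome 14, 46383520 to 46390669) had 234, 221, 310, 272 and 297 CPM in early night, against 439, 400, 396, 400 and 405 CPM at midday, a log2 fold change of -0.61 ± 0.08 (edgeR adjusted p = 0.000667). Bmp2, a closely related ligand, had 114, 98.1, 102, 95.1 and 104 CPM in early night, against 85.6, 83.9, 77.3, 87.5 and 92.7 CPM at midday, a log2 fold change of 0.27 ± 0.06 (edgeR adjusted p = 0.0195). The groups of both ligands were apart, in opposite directions, and the call of Bmp2 was lost without replicate 2 of 5 h (edgeR adjusted p 0.0505). Of 16 genes of the FGF and ERK pathway, 3 fell and none rose (18.8%; list median -0.10). Etv5, an ETS factor induced by FGF, had 81.7, 78.8, 105, 93.0 and 92.0 CPM in early night, against 154, 148, 132, 140 and 138 CPM at midday (log2 fold change -0.66 ± 0.07, edgeR adjusted p = 9.31e-05). Its relative Etv4 and the receptor Fgfr2 had log2 fold changes of -0.62 and -0.25, and lost their calls in 5 and 7 of the 10 fits without 1 library (highest edgeR adjusted p 0.0948 and 0.0684).

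Of 20 Wnt pathway genes, 3 rose and 1 fell (20.0%; list median 0.23). Rspo2, a secreted enhancer of Wnt signals, had 17.7, 14.7, 13.3, 14.3 and 17.6 CPM in early night, against 5.91, 7.73, 6.57, 8.26 and 10.7 CPM at midday (log2 fold change 0.99 ± 0.15, edgeR adjusted p = 0.00111). Dkk2, a secreted modulator of the Wnt coreceptor, averaged 39.2 ± 5.77 CPM in early night and 27.6 ± 2.38 CPM at midday (SD, n = 5 each; edgeR adjusted p = 0.00558). The groups of both were apart. Lgr5, the R-spondin receptor, rose and Fzd4, a Wnt and norrin receptor, fell with overlapping groups (log2 fold change 1.27 and -0.28, edgeR adjusted p = 0.0441 and 0.0442), and their calls were lost in 7 and 8 of the 10 fits without 1 library (highest 0.115 and 0.128). In the cyclic AMP list 2 of 22 genes fell, the phosphodiesterases Pde8b and Pde4b, and none rose (9.09%; list median 0.01). Pde8b averaged 14 ± 1.39 CPM in early night and 23 ± 4.06 CPM at midday, and Pde4b 40.2 ± 4.73 and 54.2 ± 6.69 CPM (SD, n = 5 each; edgeR adjusted p = 0.00181 and 0.0154). The call of Pde4b, whose groups overlapped, was lost without replicate 2 of 15 h (edgeR adjusted p 0.05).

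Immediate early genes, which respond within minutes to growth factors, light or handling, leaned upwards: 19 of 20 had a positive log2 fold change (list median 0.39), but only Atf3 and Egr3 passed (10%). Atf3 had 13.3, 14.1, 11.6, 11.9 and 9.57 CPM in early night, against 5.19, 6.11, 8.45, 6.19 and 5.91 CPM at midday, with groups apart (log2 fold change 0.92 ± 0.15, edgeR adjusted p = 0.00157). Egr3 averaged 2.60 ± 0.821 and 1.23 ± 0.179 CPM (edgeR adjusted p = 0.0265) and lost its call without replicate 1 or 2 of 5 h, replicate 1 of 6 h or replicate 2 of 15 h (highest 0.0908). Egr1, named here after its values were seen, had 247 and 111 CPM at 15 h and 16.3, 23.3 and 19.4 CPM at 16 h, against 16.1, 18.0, 18.8, 21.1 and 17.7 CPM at midday. The 15 h libraries alone were high, and the gene did not pass in the comparison of the groups (edgeR adjusted p = 0.2).

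The cholesterol genes that passed the test were all lower in early night. Of 25 genes of its synthesis and uptake, 5 fell and none rose (20.0%, against 4.43% of all genes), 20 had a negative log2 fold change and the list median was -0.17. Cyp51, the lanosterol demethylase, had 34.2, 35.4, 36.3, 35.3 and 36.5 CPM in early night, against 53.4, 45.3, 41.8, 46.7 and 56.2 CPM at midday. Dhcr7, the last enzyme of the pathway, had 39.6, 47.1, 44.4, 43.8 and 42.8 CPM in early night, against 63.4, 55.4, 49.0, 58.3 and 60.1 CPM at midday. Both genes were below the whole midday range in all 5 early night libraries, with log2 fold changes of -0.45 ± 0.08 and -0.39 ± 0.07 (edgeR adjusted p = 0.00292 and 0.00468). Sqle, Fdft1 and Hsd17b7, other enzymes of the pathway, had log2 fold changes of -0.28, -0.28 and -0.41 (edgeR adjusted p = 0.0171, 0.0224 and 0.0471). The list held 2 to 9 called members over the 10 fits without 1 library, the 9 without replicate 3 of 16 h. It held 1 without the libraries of 5 h and 0 with both left-out libraries kept.

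Of 24 genes for the burning of fatty acids and ketone synthesis, 1 rose and 4 fell (20.8%; list median -0.09). Plin2 (chromosome 4, 86648386 to 86670060), the coat protein of lipid droplets, had 85.0, 82.4, 104, 95.4 and 90.5 CPM in early night, against 148, 149, 143, 126 and 139 CPM at midday. Its groups were apart, with a log2 fold change of -0.62 ± 0.07 (edgeR adjusted p = 6.77e-05). Angptl4 and the carnitine carrier Slc25a20 (log2 fold change -0.24 ± 0.07, edgeR adjusted p = 0.0467) were among the other falls. Ppara, the nuclear receptor that drives these genes in liver, rose: it averaged 9.22 ± 1.36 CPM in early night and 6.37 ± 0.219 CPM at midday (SD, n = 5 each; edgeR adjusted p = 0.0225). The call of Ppara was lost without replicate 2 of 5 h (edgeR adjusted p 0.0573). None of 38 nuclear and none of 13 mitochondrial genes of oxidative phosphorylation passed (list medians 0.03 and -0.16). An unadjusted edgeR p under 0.05 was seen in 1 and 5 of them, and in 3224 of all 16358 genes tested.

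Stress and growth lists differed in their share of calls. None of 24 unfolded protein response genes passed, and their list median was -0.02. Of them, 10 had an unadjusted edgeR p under 0.05, against 3224 of all 16358 genes tested. Of 16 heat shock and cold-inducible genes 1 rose and none fell (6.25%). Hspa1b, a heat shock protein, rose (16.2 ± 3.81 CPM in early night and 9.28 ± 2.05 CPM at midday, SD, n = 5 each; edgeR adjusted p = 0.0168), and it cannot be told apart from its near-identical copy Hspa1a with certainty. Its call was lost without replicate 2 of 5 h (edgeR adjusted p 0.0513). Among 23 antioxidant genes Aldh3a1 and Txnrd1, a thioredoxin reductase, rose and none fell (8.70%; list median 0.08). Of 16 cell cycle genes 2 rose and 1 fell (18.8%, against 4.43% of all genes), with a list median of 0.00. The mitotic brake Wee1, a known clock output, rose (23.4 ± 2.14 and 15.6 ± 1.59 CPM, edgeR adjusted p = 0.00157), as did cyclin D2 (Ccnd2). Cyclin D1 (Ccnd1) fell (108 ± 11 and 154 ± 24.1 CPM, edgeR adjusted p = 0.013). Ccnd1 shares 23.4% of its exonic bases with a neighbour, and Ccnd2 lost its call without replicate 2 of 5 h or replicate 2 of 15 h (highest edgeR adjusted p 0.0652).

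Pgf, a vascular growth factor, fell (30.8 ± 1.99 CPM in early night and 43.1 ± 6.73 CPM at midday, SD, n = 5 each; edgeR adjusted p = 0.00763) as the single call among 17 angiogenic and hypoxia genes. Lox, which crosslinks collagen, fell as the single call among 26 collagen and matrix genes (14.3 ± 3.05 and 22.9 ± 2.27 CPM, edgeR adjusted p = 0.0118). Aco1, the iron sensor IRP1, fell as the single call among 16 iron genes (193 ± 8.30 and 225 ± 10.9 CPM, edgeR adjusted p = 0.021), and lost its call in 7 of the 10 fits without 1 library (highest 0.0687). The single calls made up 5.88%, 3.85% and 6.25% of the angiogenic, matrix and iron lists, near the 4.43% called over all genes tested. No complement gene of 19 was called, and 1 of them had an unadjusted edgeR p under 0.05, against 3224 of all 16358 genes tested. Of 48 cytosolic ribosomal protein genes 3 rose, Rps15, Rps20 and Rpl37, and 43 had a positive log2 fold change (6.25%; list median 0.13). These genes have many near-identical pseudogenes, their groups overlapped, and each call was lost in 6 to 8 of the 10 fits without 1 library (highest edgeR adjusted p 0.098).

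**Figure D3:**
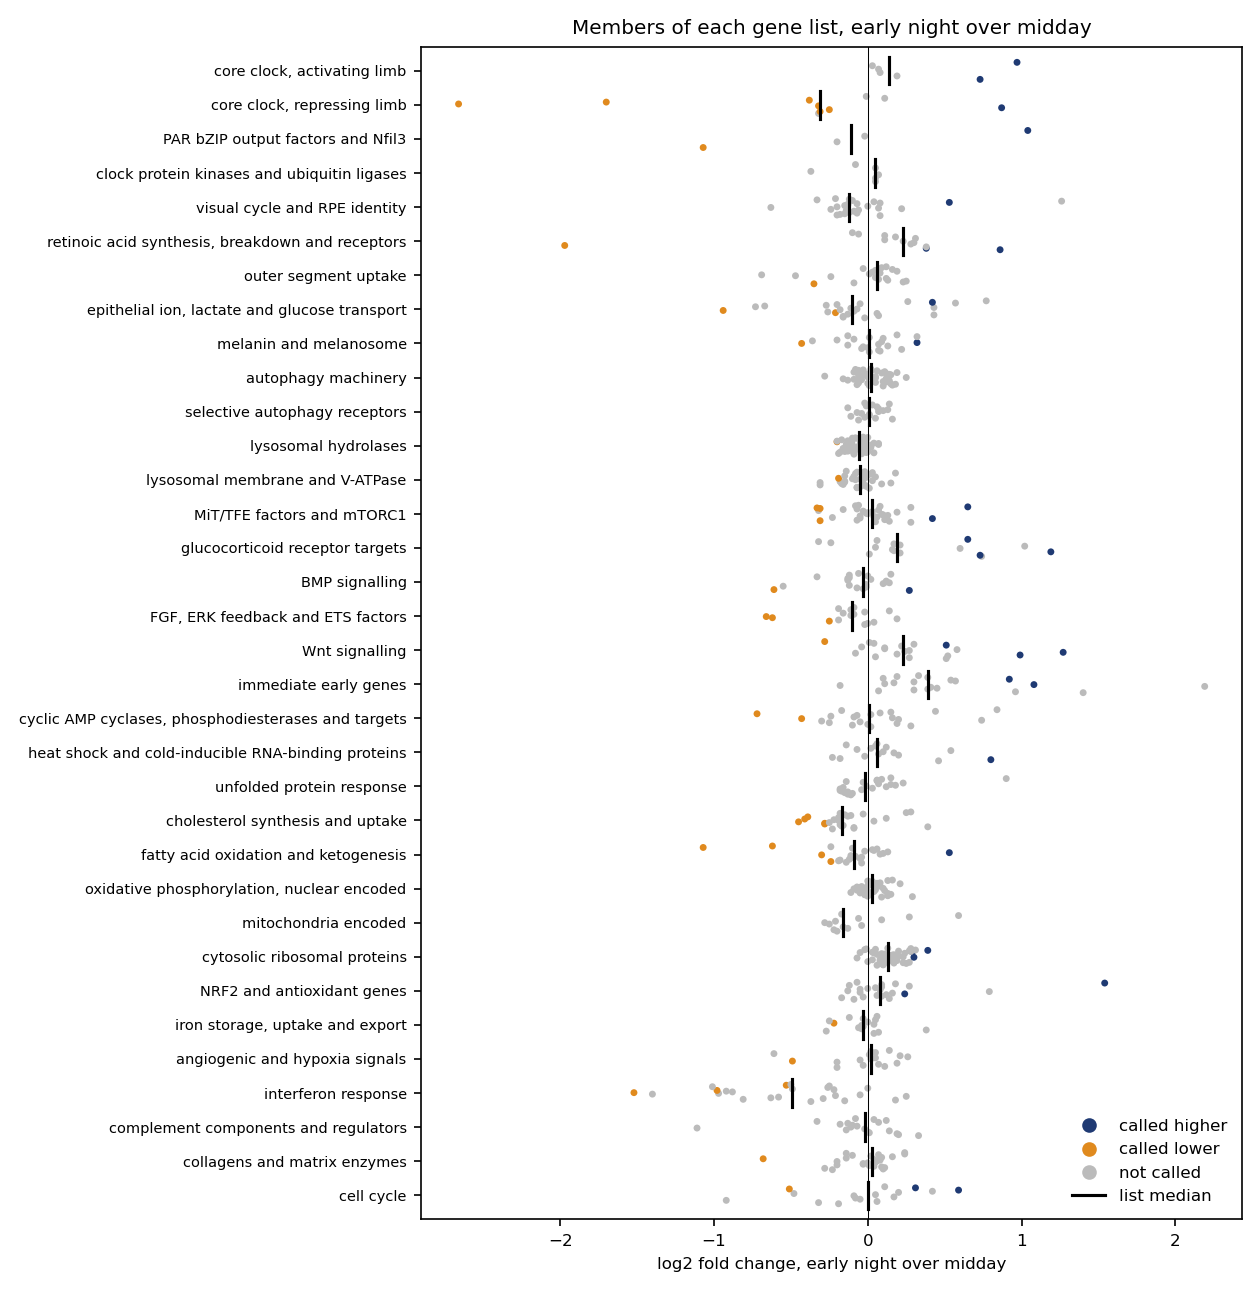
Log2 fold change of early night over midday for each tested member of the gene lists other than cell type markers and sex-linked genes, 1 point per gene, dark blue where called higher, orange where called lower and grey where not called, with a black bar at the list median. The clock lists spread from -2.66 (Ciart) to 1.04 (Nfil3), whereas autophagy and lysosomal genes crowd around 0.

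Part of the interferon list fell, and some of its members also differed within midday. Of 24 genes 3 fell and none rose (12.5%), and 21 had a negative log2 fold change, with a list median of -0.49. Oas2, which senses viral RNA, had 1.37, 3.24, 1.83, 1.44 and 1.30 CPM in early night, against 8.36, 6.92 and 5.47 CPM at 5 h and 2.45 and 3.18 CPM at 6 h. The high values were those of 5 h, and the 6 h libraries lay close to the night. Mx2 and Ifih1 showed the same order, at 2.17 to 3.64 and 9.69 to 12.8 CPM in early night, 6.48 to 7.30 and 16.6 to 20.5 CPM at 5 h and 3.24 to 3.36 and 11.9 to 13.6 CPM at 6 h. The edgeR adjusted p was 0.0277 for Oas2, 0.0355 for Mx2 and 0.0435 for Ifih1, and each call was lost in 7 of the 10 fits without 1 library (highest 0.132). Between 6 h and 5 h, 10 genes were called (0.0611%), all lower at 6 h, and 4 of them were members of this list: Irf7, Irf9, Oasl2 and Xaf1. The list median at 6 h over 5 h was -0.76. Skeletal muscle markers, at 245 and 438 CPM as a sum at 6 h against 877, 812 and 1008 CPM at 5 h, had a list median of -1.56 with no member called, and their part in the interferon values was not tested. Without the 5 h libraries the list median was 0.05 and no member was called.

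Markers of other cells in the dissection moved with the groups to different degrees. Of 16 rod markers none was called, 15 had a negative log2 fold change (list median -0.76), and their summed level was 1100 to 2360 CPM in early night and 1340 to 3060 CPM at midday. Of 9 cone markers Pde6c was called lower, and their sums were 26.3 to 53.4 CPM in early night and 38.4 to 67.7 CPM at midday. Opn1mw, Pde6h and Cngb3 were under 1 CPM on average. With the rod level of each library as a covariate, 318 genes were called, 305 of them among the 725. The clock genes Ciart, Nr1d1, Dbp, Cry1, Arntl, Nfil3, Cry2 and Nr1d2 kept their calls in that fit, and Per2 and Per3 did not (edgeR adjusted p = 0.144 and 0.166). Of all 83 called named genes, 48 were still called with the covariate. Cholesterol synthesis and uptake held 2 called genes with it and 5 without it, the MiT/TFE factors and mTORC1 also 2 and 5, and Wnt signalling 2 and 4. The melanin list held none with it and 2 without it, and the ribosomal proteins none and 3. The interferon list and the glucocorticoid receptor targets held 3 each in both fits. The mitochondria-encoded genes held 4 called genes with it and none without it.

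Markers of macrophages, mast cells and lymphocytes were lower as a sum in every early night library, 790 to 884 CPM, than in any midday library, 905 to 1020 CPM. None of the 13 tested was called, and 10 had a negative log2 fold change. Cd3e, the marker of T cells, was too low to be tested. This sum moved in the same direction as Itgal, which had 6.38 to 10.1 CPM in early night and 10.2 to 19.9 CPM at midday (log2 fold change -0.88 ± 0.18, edgeR adjusted p = 0.0152), and as the interferon list, and its part in those results was not tested. Among 12 fibroblast and mural cell markers Acta2, the smooth muscle actin, was called higher (192 ± 24.1 CPM in early night and 156 ± 12.3 CPM at midday, SD, n = 5 each; edgeR adjusted p = 0.044), with overlapping groups. Its call was lost in 7 of the 10 fits without 1 library (highest edgeR adjusted p 0.106). Sums for the inner retina, choroid endothelium, lens, muscle, red cells of the blood and melanocytes overlapped between the groups, and no marker in those lists was called. The lens and ciliary body list still had a median log2 fold change of 1.23, with 7 of 8 tested markers positive. Its sum was 291 CPM in replicate 1 of 15 h and 145 CPM in replicate 1 of 16 h. It was 29.9 to 42.0 CPM in the other early night libraries and 26.3 to 105 CPM at midday. All 10 muscle markers had a negative log2 fold change (list median -0.35). The part of these tissues in other results was not tested. Eif2s3y, on the Y chromosome, fell (45.7 ± 5.12 and 56.9 ± 2.65 CPM, edgeR adjusted p = 0.0195) with overlapping groups, and lost its call without replicate 1 of 6 h or replicate 1 or 2 of 15 h (highest 0.0617).

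**Figure D4:**
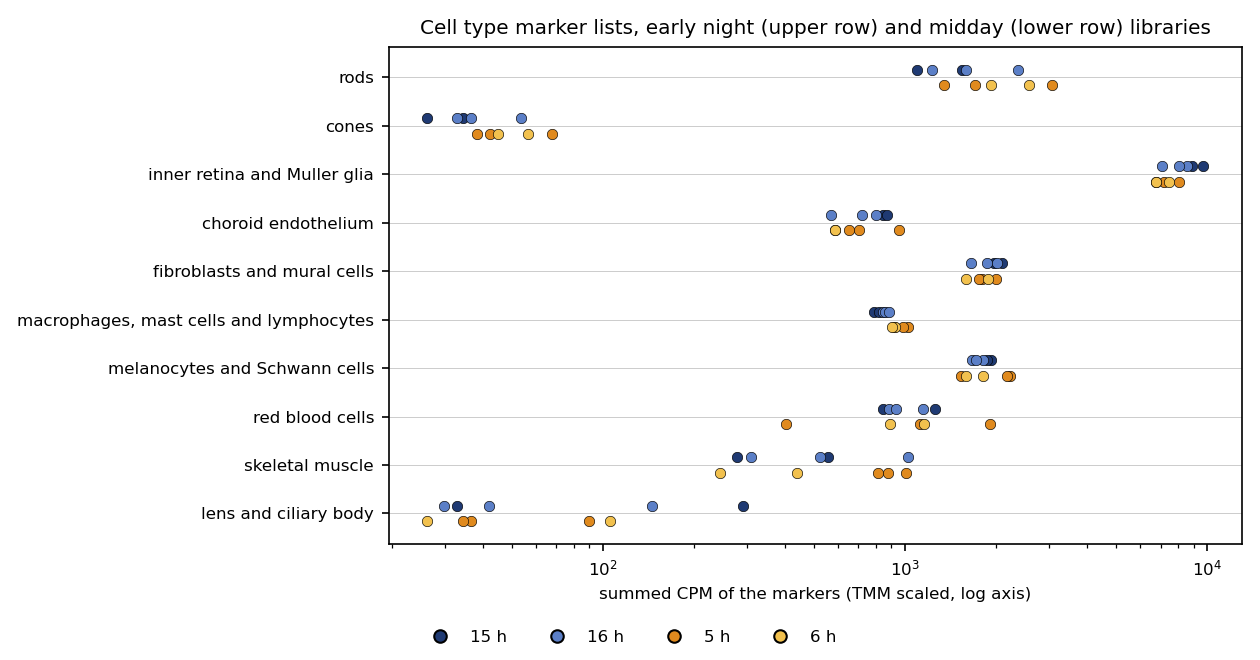
Summed CPM of the markers of each cell type in every library on a log axis, early night (upper row, blue) and midday (lower row, orange and yellow). The sum for macrophages, mast cells and lymphocytes is lower in all 5 early night libraries (790 to 884 CPM) than in all 5 midday libraries (905 to 1020 CPM), and the other sums overlap.

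The comparison joins 2 pairs of times 10 h apart that share no library, so each could be looked at alone. At 15 h against 5 h, 1171 genes were called (7.16%; 711 higher, which is 4.35%, and 460 lower, 2.81%), and at 16 h against 6 h, 140 genes (0.856%; 88 higher, 0.538%, and 52 lower, 0.318%). Of the 1171 genes, 985 (84.1%) had the same sign at 16 h against 6 h and 109 (9.31%) were called there too. Of the 140 genes, 138 (98.6%) had the same sign at 15 h against 5 h and 109 (77.9%) were called there. Over all genes tested the signs of the pairs were the same for 63.5%. The call count at 16 h against 6 h was 33 without replicate 1 of 6 h, and that at 15 h against 5 h was 196 without replicate 1 of 15 h.

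The leading clock genes had like values in the pairs. The log2 fold change of Ciart was -2.68 at 15 h against 5 h and -2.70 at 16 h against 6 h (edgeR adjusted p = 1.27e-08 and 1.86e-09). That of Nr1d1 was -1.81 and -1.65, and that of Nfil3 1.19 and 0.88. Arntl alone of the called clock genes passed at 16 h against 6 h (0.99, edgeR adjusted p = 0.00257) and not at 15 h against 5 h (0.45, edgeR adjusted p = 0.0658), and the difference between the pairs was not called (0.54, edgeR adjusted p = 0.522). Fmo2, Rasl11a, Rasl11b, Cacna1h and Mmp3 were also called in both pairs.

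Several lists were called mainly at 15 h against 5 h. In that pair 24 of 48 ribosomal protein genes and 9 of 20 immediate early genes were higher, against 4.35% of all genes tested. There 12 of 24 interferon genes were lower, against 2.81% of all genes tested. The 15 h values rest on replicates 1 and 2 alone. At 16 h against 6 h no member of these lists was called, against 0.856% of all genes tested. Only 3 genes, 0.0183% of those tested, passed the test of the difference between the pairs: Dkk3, Angptl2 and Gm15920 (edgeR adjusted p = 0.0447 for each). The members of those 3 lists were not among them. Dkk3, a secreted protein of the Dickkopf family and the one of the 3 that is in the Wnt list, had 692 and 637 CPM at 15 h and 468, 482 and 479 CPM at 16 h, against 404, 445 and 418 CPM at 5 h and 455 and 521 CPM at 6 h. It was high at 15 h alone. Between 16 h and 15 h, 72 genes were called (0.44%), 53 of them lower at 16 h, and these included Fos, an immediate early gene (log2 fold change -1.88, edgeR adjusted p = 0.00308), and Egr1 (-3.18, edgeR adjusted p = 0.0325).

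**Figure D5:**
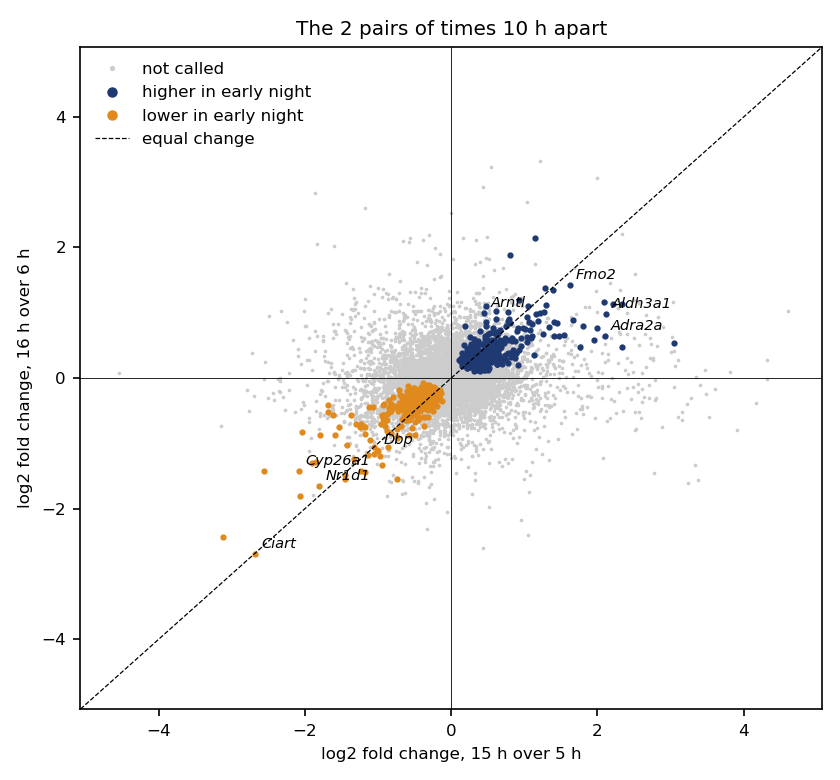
Log2 fold change at 16 h over 6 h against that at 15 h over 5 h for every gene tested, dark blue where called higher and orange where called lower in early night over midday, grey otherwise, with a dashed line for equal change. All 725 called genes lie in the 2 quadrants of equal sign, which their choice favours, since they were called on the libraries of both pairs together. Ciart, Nr1d1 and Dbp lie near the line, while Aldh3a1 and Adra2a lie below it, although the difference between the pairs was not called for either (edgeR adjusted p = 0.595 and 0.374).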

How the data were processed

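Per the labels' protocols, RNA of mouse RPE was extracted with the RNAqueous-Micro kit and made into libraries with NEBNext Ultra RNA, a kit without strand marking. The authors deposited raw counts of reads per gene, 1 column per mouse. STAR, HTSeq and mm10 appear in the submitters' processing notes, without versions or settings. The replicates are separate mice, and no pair among the 10 libraries differed by less than sampling noise.

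From these counts, genes were kept with edgeR's filterByExpr (minimum count 10), scaled by TMM and tested with the quasi-likelihood test of edgeR 4.0.16 in R 4.3.3, with 1 mean per group, over the 10 libraries. Depth was 14073440 to 17121986 counts, and 99.84% of counts fell in tested genes. A gene was called at a Benjamini-Hochberg adjusted p under 0.05 over all 16358 genes tested. A fit with 1 mean per time gave the pairs of times. Alternatives used DESeq2 1.42.0 (which gave size factors and a Wald test), limma 3.58.1, other filters, other sets of libraries and a rod marker covariate.

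Named genes were all core clock genes, the 12 largest rises and falls with at least 5 CPM and no overlap between groups, up to 3 called genes in each direction of each other list, and 10 genes of the study's subject and the RPE. Other genes in the text lie outside this rule and were named after their values were seen. The members and lists were chosen with earlier results of these data known. Shared exonic bases come from GENCODE vM21 (GRCm38) and promoters from RefSeq (GRCm38.p6). A few genes that the rule takes are not reported here.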

Additional observations from a re-analysis of the deposited data

Results flagged for a closer look

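In 208 groups of 5 libraries, 104 named genes in early night and at midday, 12 had a highest or lowest library whose gap to the next exceeded Dixon's 95% critical value of 0.71 of the range. Chance flags about 1 in 20 groups. Replicate 1 of 16 h held 4 of the 12, replicate 1 of 5 h held 3 and replicate 2 of 6 h held 2.

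Replicate 1 of 16 h had 70.7 CPM of Nr1d1, against 51.2 to 56.5 CPM in the other early night libraries, and 83.8 CPM of Per2, against 62.5 to 67.3 CPM. It had 8.90 CPM of Lox, against 15.4 to 16 CPM, and 381 CPM of Lamp1, against 410 to 422 CPM. Nr1d1 and Per2 are clock repressors. Nr1d2, another clock repressor, was not flagged and had 150 CPM in this library, within the 135 to 154 CPM of early night. Rora had 75.8 CPM in replicate 1 of 15 h, against 86.3 to 90.2 CPM in the other early night libraries, and Oas2 3.24 CPM in replicate 2 of 15 h, against 1.30 to 1.83 CPM.

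At midday, replicate 1 of 5 h had 439 CPM of Bmp4 (396 to 405 CPM in the others), 595 CPM of Atp6v0a1 (519 to 528 CPM) and 76.5 CPM of Per2 (86.4 to 88.7 CPM). Replicate 2 of 6 h had 151 CPM of Mtor (171 to 176 CPM) and 2.29 CPM of Lgr5 (0.657 to 1.06 CPM). Replicate 2 of 5 h had 48.2 CPM of Tfe3 (42.5 to 43.6 CPM).

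The change at 16 h against 6 h differed from that at 15 h against 5 h in 3 genes (edgeR adjusted p = 0.0447 for each difference). Dkk3 had log2 fold changes of -0.03 and 0.65, a difference of -0.69. Angptl2, a secreted angiopoietin-like protein, had -0.03 and 0.72, a difference of -0.75. Gm15920, a short predicted gene, had -0.58 and 0.42, a difference of -1. Gm15920 was the one of the 3 whose log2 fold changes had opposite signs with each past the threshold (edgeR adjusted p = 0.0177 and 0.0323).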

How the results depend on the processing

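No named gene reversed its direction with a call under any of the 25 alternatives, and Ciart, Nr1d1, Dbp, Cry1, Fmo2, Il34, Rasl11a and Rasl11b were called in all 25. The 725 genes called in early night against midday became 1227 with DESeq2's Wald test, 1397 with 1 mean per time, 18 with both left-out libraries kept and 318 with the rod covariate. They were 375 without the libraries of 15 h, 1481 without those of 16 h and 65 without those of 5 h, and the cause was not tested. Fits without 1 library gave 422 to 1216. The 1171 genes of 15 h against 5 h became 1789 with no filter on low counts and 196 to 827 without 1 library. The 140 genes of 16 h against 6 h became 389 with no filter and 33 to 130 without 1 library. Where a pair kept 1 library at a time, that library was assumed to vary like the others. The 3 genes of the difference between pairs had no alternative. Of the 83 called named genes, 80 were called with DESeq2 size factors and with upper quartile scaling, 83 with DESeq2's test, 77 with limma-voom and 55 to 79 without 1 library.

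Same-numbered libraries of early night and midday had correlated deviations of -0.19 to 0.06 over 9 pairs, 0 over 0.1. Within a group, same-numbered libraries had correlations of -0.19 to 0.12. Each deviation was taken from the mean of the few libraries of its time, so the values depend on each other. They cannot show whether same-numbered mice were handled together. With the replicate number as a block, 621 genes were called in early night against midday, 592 of them shared, 748 at 15 h against 5 h and 90 at 16 h against 6 h.

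With 5 mice per group, changes of genes that are low in 1 group rest there on few reads. Lgr5 had 1.90 to 4.12 CPM in early night and 0.657 to 2.29 CPM at midday. Cyp26a1 had 1.01 to 2.80 CPM in early night and 4.07 to 12.3 CPM at midday. The errors given are SDs over libraries and SEs from the edgeR test.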

Other observations

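The genes below were chosen after their values were seen, and in each the ranges of early night and midday did not overlap. Thbs1, a matrix protein of the thrombospondin family and a ligand in outer segment uptake, had 2020, 2120, 2160, 1990 and 2280 CPM in early night, against 1380, 1410, 1410, 1320 and 1220 CPM at midday (log2 fold change 0.65 ± 0.06, edgeR adjusted p = 1.32e-05). Its call was lost with both left-out libraries kept (edgeR adjusted p = 0.794). Sphk2, a sphingosine kinase, had 59.7, 58.3, 54.7, 49.7 and 49.1 CPM in early night, against 30.8, 24.2, 27.8, 28.7 and 28.7 CPM at midday (log2 fold change 0.95 ± 0.08, edgeR adjusted p = 4.12e-06). Sphk2 shares 21.9% of its exonic bases with Dbp on the other strand, and it ran in the direction opposite to that of Dbp.

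Aanat, the penultimate enzyme of melatonin synthesis, had 39.6, 36.9, 47.2, 46.5 and 45.5 CPM in early night, against 60.3, 65.3, 63.7, 59.4 and 61.7 CPM at midday (log2 fold change -0.52 ± 0.07, edgeR adjusted p = 0.000505). In the pineal gland of rodents this gene is known to be higher at night. Tshr, the thyrotropin receptor, had 429, 451, 525, 467 and 551 CPM in early night, against 625, 676, 650, 727 and 668 CPM at midday (log2 fold change -0.47 ± 0.07, edgeR adjusted p = 0.00109). Inpp5k, a phosphoinositide phosphatase, ranged from 1170 to 1470 CPM in early night and from 1710 to 1890 CPM at midday (log2 fold change -0.45 ± 0.07, edgeR adjusted p = 0.00109). Bdnf, a neurotrophin, ranged from 16.1 to 22.2 CPM in early night and from 10.9 to 14.3 CPM at midday (log2 fold change 0.57 ± 0.11, edgeR adjusted p = 0.00536). Tshr lost its call with both left-out libraries kept, and Aanat, Inpp5k and Bdnf lost theirs there and without the libraries of 5 h.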
